A study of Mus with 18 samples.

Results

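The nuclear-encoded subunits of the mitochondrial respiratory chain were described in libraries labelled mouse C2C12 myoblasts and mouse gastrocnemius muscle after lipopolysaccharide (LPS), with and without moringa isothiocyanate-1 (MIC-1). Members were taken by gene symbol: Nduf genes of the a, b, c, s and v series, Sdha to Sdhd, all Uqcr genes, Cyc1, Cox genes numbered 4 to 8 and all Atp5 genes. A level above 0 FPKM (fragments per kilobase of transcript, scaled to 1000000 reads) was required in at least 3 libraries of either experiment. Of 21401 gene symbols, 86 matched and 85 were members. Cox8c, with 2 muscle libraries above 0, lay just outside, and Cox7b2, with 3 C2C12 libraries above 0, lay just inside. By complex, 35 members belong to complex I, 4 to complex II, 9 to complex III, 17 to complex IV and 15 to complex V. Ndufa4 was counted with complex IV, where the protein is now placed. The other 5 matched the names without being core subunits: Ndufa4l2, Cox7a2l, Cox4nb (now Emc8), Atp5s (now Dmac2l) and Atp5sl (now Dmac2).

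Complexes I and II pass electrons from NADH and succinate to coenzyme Q, complex III passes them on to cytochrome c, and complex IV hands them to oxygen. Complexes I, III and IV pump protons while doing so, and complex V, the ATP synthase, uses the resulting gradient to make ATP. Most subunits are encoded in the nucleus, a small set of central membrane subunits is encoded in mitochondrial DNA, and oxidative muscle fibres are rich in all of them. None of the 13 mitochondrially encoded genes was found under its usual symbol, so the chain is described here from the nuclear side only.

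The data are 18 RNA-seq libraries, 9 per experiment and 3 per group. The cell libraries were labelled wild-type C2C12 myoblasts, a mouse muscle precursor line, given a vehicle (saline in the labels, ethanol in the paper), LPS at 1 μg/mL, or LPS at 1 μg/mL with 10 μM MIC-1 for 24 h; the paper names a lower MIC-1 dose. The muscle libraries came from wild-type male C57BL/6 mice whose age was not given in the sources used here. The mice received a vehicle (saline in the labels, oral DMSO in the paper), LPS at 10 mg/kg into the peritoneum, or the same LPS after 3 days of MIC-1 at 80 mg/kg by daily gavage, and the gastrocnemius was taken 16 h after LPS. No group received MIC-1 alone. The sources state neither whether the cell libraries were separate cultures nor the reads per library, so the depth behind each FPKM value is unknown and p-values measure only the spread between these libraries.

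Markers did not follow the cell labels. In the libraries labelled C2C12 control and LPS, the summed FPKM of 21 macrophage genes was 11043.3 to 11096.0 and 7835.7 to 8072.9, with Lyz2, Tyrobp, Laptm5 and Cd14 among the highest, and that of 11 myogenic genes was 0.285 to 0.902 and 1.11 to 2.75. Myf5 and Pax7 were at 0 in all 6. In the 3 libraries labelled LPS-MIC-1 the macrophage sum was 81.4 to 293 (highest in replicate 1), the myogenic sum 794 to 1003.6, and the sum of 4 Y-linked genes 0.0488 to 1.62, against 52.1 to 65.9 in the other 6. In the cells, therefore, LPS-MIC-1 treatment and cell identity cannot be told apart, and the comparison of LPS with control is one between libraries with macrophage markers. In muscle, the summed FPKM of 15 muscle-fibre genes, led by Acta1, Ckm and Myl1, lay between 275217.5 and 282866.4 in control. The LPS libraries had sums of 261649.3 to 266851.2, and the LPS-MIC-1 libraries had lower ones, of 201602.8 to 215740.9. The median over the list went the other way. It was 14078.1 to 14498.9 FPKM with LPS-MIC-1, against 10696.3 to 11127.0 for the LPS libraries and 10017.0 to 10900.2 for the controls. A list of 11 LPS-response genes, including Lcn2, Saa3 and the metallothioneins Mt1 and Mt2, summed to between 57.2 and 63.2 in control. The sum lay between 127 and 134 in LPS, and between 13677.6 and 15425.7 in LPS-MIC-1, where Mt2, Mt1 and Lcn2 were highest. Of the 10 listed genes tested, 4 rose and 2 fell in LPS against control, against 8.25% and 7.48% of all genes. All 10 rose in LPS-MIC-1 against LPS (median log2 fold change 5.98), against 28.3% of all genes. The muscle groups are thus in doubt as well: they are named here by their labels, and each direction below is one between the libraries labelled LPS, LPS-MIC-1 and control. Muscle LPS-MIC-1 replicate 3 stood apart with a macrophage sum of 229, against 58.5 and 60.2 in the other two. The part of these differences in the values below was not tested.

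In muscle, nuclear respiratory chain transcripts were lower in the libraries labelled LPS-MIC-1 than in either other group across all 5 complexes. Those labelled LPS differed from control by little and in mixed directions. All members together made up between 6.91 and 7.19% of summed FPKM in control libraries, between 7.15 and 7.27% in LPS libraries, and between 6.24 and 6.32% in LPS-MIC-1 libraries. Their summed FPKM was 49978, 53078 and 53274 in control, 51305, 53019 and 51319 in LPS, and 42498, 41905 and 39590 in LPS-MIC-1. The LPS libraries lay within the range of the controls, and all 3 LPS-MIC-1 libraries lay below every other library. The mean differed by -0.439% between LPS and control (two-sided exact permutation p = 0.8) and by -20.3% between LPS-MIC-1 and LPS (p = 0.1, the smallest that 3 against 3 libraries allow). Among members of the 5 complexes the mean level in control spanned a wide range, from Cox7b2, listed at 0, to 3564.1 FPKM for Cox6a2, the muscle form of a complex IV subunit. FPKM is scaled for transcript length, so levels of different genes are set side by side here. Such comparisons are rough, since how the counting divided reads between transcripts was not tested. In bulk tissue, fewer cells of a type and less RNA per cell cannot be told apart.

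**Figure D1:**
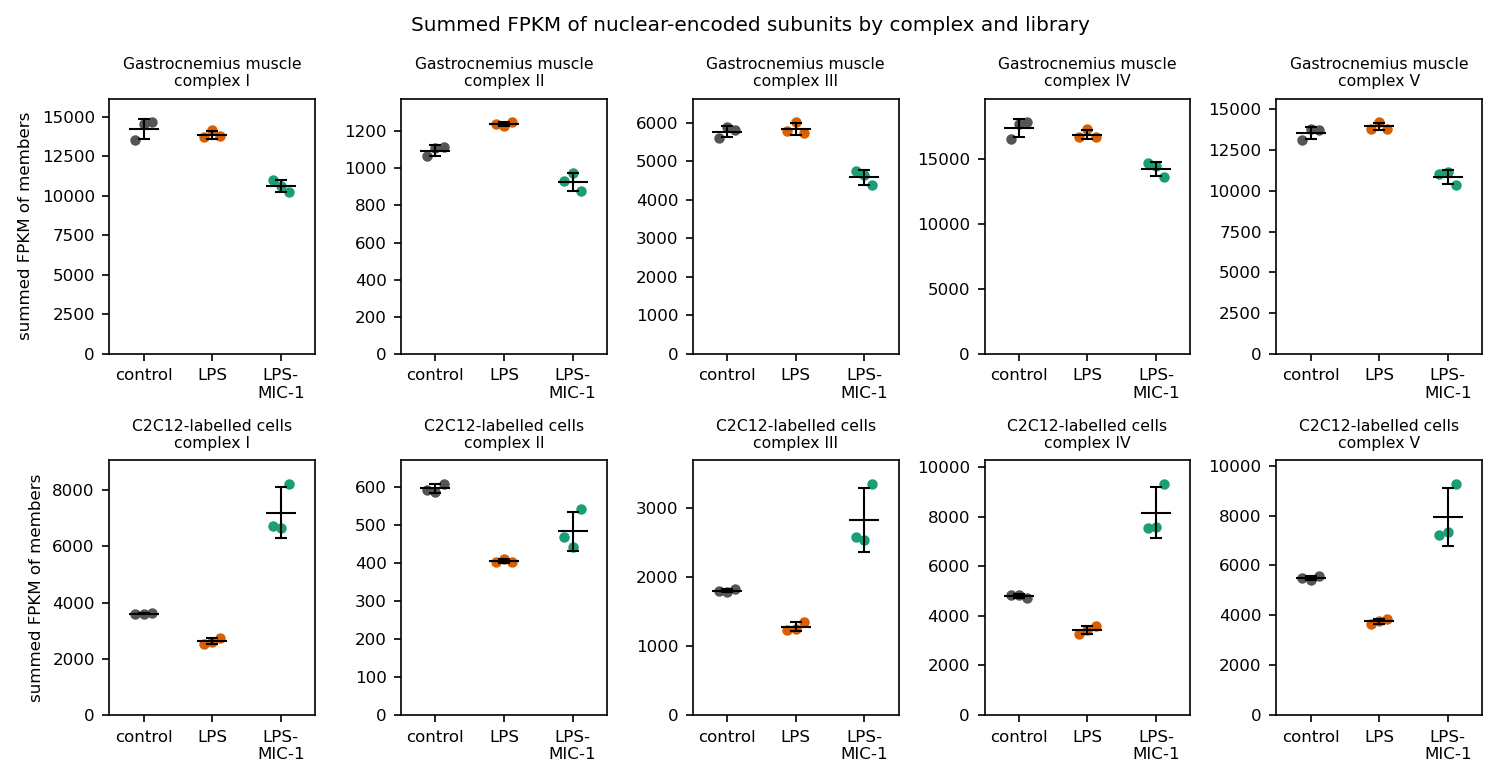
Summed FPKM of the nuclear-encoded members of each complex (vertical axes, from 0) in each library, for gastrocnemius muscle (top) and the libraries labelled C2C12 (bottom), by group on the horizontal axes. Points are libraries, the long dash is the mean and the bars are ± 1 SD (n = 3); in muscle all LPS-MIC-1 libraries lie lowest in each complex, and in the cells all LPS libraries lie lowest.

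Each complex showed the muscle pattern on its own. Complex I members summed to 13524, 14526 and 14667 FPKM in control, 13695, 14167 and 13754 in LPS, and 11013, 10610 and 10230 in LPS-MIC-1, a difference of -23.5% between LPS-MIC-1 and LPS. Complex II was the exception in LPS against control: its sum was 1065, 1109 and 1116 in control and 1241, 1227 and 1251 in LPS, without overlap, a difference of 13% (exact permutation p = 0.1). In LPS-MIC-1 it was 931, 973 and 878, below both, and differed from LPS by -25.2%. For complexes III, IV and V, the LPS-MIC-1 sums differed from LPS by -21.5%, -15.5% and -22.2%, each without overlap. Complex IV had the smallest relative difference of the 5 sums. With each library scaled to the same sum, the differences of complexes III, IV and V were -14.2%, -7.63% and -15%. Against control, the LPS sums of complexes I, III and IV overlapped (differences of -2.57%, 1.21% and -2.79%), whereas that of complex V did not (3.02%, exact permutation p = 0.1). That gap was narrow: the highest control sum of complex V was 13780 and the lowest LPS sum 13824.

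The muscle libraries labelled LPS were first compared with those labelled control, the study's comparison for the endotoxin alone. Of 83 members tested, 12 rose and 5 fell at an adjusted p under 0.05 (limma, Benjamini-Hochberg over all genes tested), against 8.25% of all 9475 genes higher and 7.48% lower. The median log2 fold change of the members was 0.02, and of all genes 0.01. Fold changes here and below are on the log2(FPKM + 0.1) scale. None passed the study's thresholds in muscle (absolute log2 fold change over 1 and adjusted p under 0.05), which 0.654% of all genes passed higher and 0.591% lower. Without overlap between the groups, 22 members were higher and 12 lower, against 18.8% and 17.7% of all genes. The count of risen members was 7 without control replicate 1 or without LPS replicate 3, and that of fallen members was 2 without control replicate 2 or 3 and 3 without any 1 of the LPS libraries. With each library scaled to the same sum, 22 rose and 7 fell.

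The 12 members called higher in LPS than in control in muscle were 3 each of complexes I, II, III and V. In complex II, Sdha, which takes electrons from succinate, rose most. Sdha, the flavoprotein of succinate dehydrogenase (complex II), was 152, 159 and 164 FPKM in control and 192, 187 and 186 in LPS. All 3 LPS values lay above the controls, with a log2 fold change of 0.25 (SE 0.0343, adjusted p = 0.00216). Its partner Sdhb, the iron-sulfur subunit, rose by 0.19 (SE 0.0472, adjusted p = 0.0315), and Sdhd, a membrane anchor, by 0.22 (SE 0.0505, adjusted p = 0.0206). Sdhc, the other anchor, had 0.12 and did not pass (adjusted p = 0.116). The call of Sdhb was lost without control replicate 1 or 2 or any 1 of the LPS libraries (adjusted p = 0.0696 to 0.102), and that of Sdhd without any 1 of the controls or LPS replicate 1 or 3 (adjusted p = 0.053 to 0.0729).

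In complex I, Ndufs1, the large iron-sulfur subunit of the NADH-oxidizing arm, was 86.4, 89.9 and 94.6 FPKM in control and 111, 115 and 111 in LPS, without overlap. It rose by 0.31 on the log2 scale (SE 0.0445, adjusted p = 0.00243). Ndufs4, an accessory subunit needed for a stable complex I, rose from 87.7, 89.8 and 95.9 to 117, 111 and 109 FPKM (0.30, SE 0.0428, adjusted p = 0.00239), and Ndufa10, another accessory subunit, rose by 0.13. The flavin-binding core subunit Ndufv1 was higher in all 3 LPS libraries (190 to 192 FPKM against 200 to 208) but did not pass, at 0.09 (adjusted p = 0.191). Across the 7 core subunits the median was 0.09 with 1 called, and across the 28 accessory ones -0.03 with 2 higher and 2 lower. That split of complex I was made with these results known.

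In complex III, cytochrome c1 (Cyc1) was 352, 375 and 355 FPKM in control and 412, 412 and 416 in LPS. It rose by 0.20 (SE 0.0407, adjusted p = 0.0144), a call lost at adjusted p = 0.0507 without control replicate 1 and 0.052 without LPS replicate 3. Uqcrc2, a core subunit, was 221, 218 and 222 against 265, 273 and 265 FPKM and rose by 0.28 (SE 0.0317, adjusted p = 0.000795). The Rieske iron-sulfur protein Uqcrfs1 rose by 0.16 (SE 0.0346, adjusted p = 0.0163; without LPS replicate 2, adjusted p = 0.0605). Cytochrome c1 and the Rieske protein carry electrons, while Uqcrc2 forms part of the matrix-facing core. In complex V, Atp5a1, the α subunit, was 654, 655 and 665 FPKM in control and 801, 794 and 784 in LPS, a rise of 0.27 (SE 0.032, adjusted p = 0.00103). Atp5b, the β subunit, rose by 0.15 (adjusted p = 0.03), a call lost without control replicate 1 or 2 or any 1 of the LPS libraries (adjusted p = 0.0617 to 0.0975), and Atp5f1, a subunit of the peripheral stalk, rose by 0.17 (adjusted p = 0.00855).

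The 5 members that fell were 2 of complex I and 1 each of complexes III, IV and V. As a count of 83 tested, this was not above the share of all genes called lower (7.48%). Ndufa2, an accessory complex I subunit, was 317, 354 and 342 FPKM in control and 273, 282 and 221 in LPS, without overlap (log2 fold change -0.39, SE 0.097, adjusted p = 0.0293). Ndufa13, known also as GRIM-19, fell by 0.21 (adjusted p = 0.00365), Uqcr11 of complex III by 0.14 (adjusted p = 0.0303), and Atp5e, the ε subunit of the ATP synthase, by 0.20 (adjusted p = 0.00688). Cox8b, the muscle form of the smallest complex IV subunit, was 2389.3, 2709.1 and 2734.1 FPKM in control and 2090.6, 2265.6 and 2264.8 in LPS and fell by 0.24 (adjusted p = 0.0245). The calls of Ndufa2, Uqcr11 and Cox8b were lost without control replicate 2 (adjusted p = 0.0922, 0.098 and 0.0829) and without control replicate 3 (0.079, 0.0882 and 0.0773), and those of Uqcr11 and Cox8b also without any 1 of the LPS libraries (0.0667 to 0.104 and 0.0502 to 0.0839). Among the 15 complex IV members tested no other was called, and none rose.

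**Figure D2:**
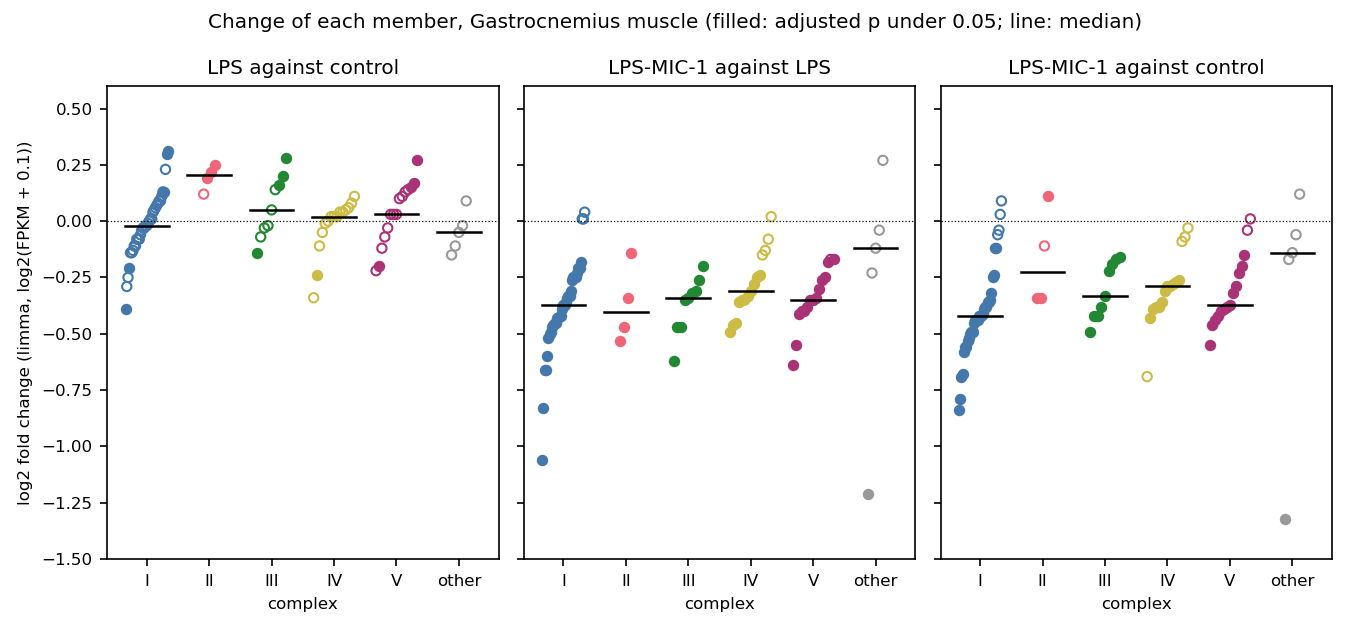
Log2 fold change of each member in gastrocnemius (vertical axis, limma on log2(FPKM + 0.1)), by complex (horizontal axis), for 3 comparisons. Filled points passed an adjusted p under 0.05, open points did not, and lines are medians per complex; LPS against control is centred near 0 apart from complex II at 0.20, and both LPS-MIC-1 comparisons lie mostly below 0.

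The muscle libraries labelled LPS-MIC-1 were then compared with those labelled LPS, the study's comparison for the isothiocyanate, with the LPS-response genes of both groups as given above. Of the 83 members, 70 fell and 0 rose in muscle (limma, Benjamini-Hochberg, adjusted p under 0.05), against 28.2% of all genes lower and 28.3% higher. At an unadjusted p under 0.05 there were 71 lower and 0 higher. The median log2 fold change was -0.34 in the members and -0.01 over all genes. Without overlap, 70 members were lower and 1 higher, against 31.7% and 32.5% of all genes. The differences were modest: 2 members, Ndufs8 and Ndufa4l2, fell past the study's thresholds (absolute log2 fold change over 1 and adjusted p under 0.05), which 5.44% of all genes passed lower and 9.67% higher. Without LPS-MIC-1 replicate 3, the muscle library with the highest macrophage sum, 64 members fell, 0 rose and the median was -0.32. With equal library sums 59 fell, 4 rose and the median was -0.21.

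By complex, 32 of 35 members of complex I, all 4 of complex II, all 9 of complex III, 10 of 15 tested in complex IV and 14 of 15 in complex V fell, with medians of -0.37, -0.40, -0.34, -0.31 and -0.35. Ndufs8, a core iron-sulfur subunit of complex I, had the lowest FPKM of that complex in muscle. It was 12.1, 17.2 and 17.2 FPKM in LPS and 8.11, 6.26 and 7.54 in LPS-MIC-1. It fell by 1.06 (SE 0.162, adjusted p = 0.000635). Ndufb7, an accessory subunit, was far more abundant and its replicates lay closer together, at 662, 654 and 630 against 440, 407 and 386 FPKM, a fall of 0.66 (SE 0.047, adjusted p = 6.84e-06). Ndufa3, the most abundant complex I member in muscle, fell by 0.25 (adjusted p = 0.0194), a call lost without LPS replicate 2 (adjusted p = 0.0673), LPS-MIC-1 replicate 2 (0.0578) or LPS-MIC-1 replicate 3 (0.0642). Ndufs1 fell from 111, 115 and 111 to 90.9, 85.7 and 83.4 FPKM, close to its control values, by 0.37 (adjusted p = 0.000152), and Ndufv1 fell by 0.21 (adjusted p = 0.00303; -0.08 and no longer called, at adjusted p = 0.092, with each library scaled to the same sum).

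In complex II, Sdhb was 469, 474 and 488 FPKM in LPS and 336, 343 and 316 in LPS-MIC-1 and fell by 0.53 (SE 0.0472, adjusted p = 2.76e-05). Sdha differed least within the complex, at 192, 187 and 186 against 172, 174 and 167 FPKM, and fell by 0.14 (SE 0.0343, adjusted p = 0.00784). With each library scaled to the same sum its value was -0.01 (adjusted p = 0.757). Sdhc and Sdhd fell by 0.47 and 0.34. In complex III, Cyc1 fell from 412, 412 and 416 to 266, 285 and 258 FPKM, by 0.62 (SE 0.0407, adjusted p = 4.34e-06), and was the member of that complex with the largest difference. Uqcr11, its most abundant member, fell by 0.35, and the Rieske protein Uqcrfs1 by 0.32 (adjusted p = 8.45e-05).

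In complex V the 3 genes for subunit c, which encode the same mature protein of the rotor ring, differed in size of change. Atp5g1 was 1716.1, 1729.9 and 1673.7 FPKM in LPS and 1111.6, 1166.4 and 1009.5 in LPS-MIC-1, and fell by 0.64 (SE 0.0491, adjusted p = 1.07e-05). Atp5g3 fell by 0.35 and Atp5g2 by 0.18 (adjusted p = 0.0114), a call lost after quantile normalization (-0.01) or with equal library sums (-0.05). The share of Atp5g1 in the summed FPKM of the 3 genes lay between 54.4 and 55.2% in control, between 54.7 and 56.8% in LPS, and between 48.2 and 50.2% in LPS-MIC-1, while that of Atp5g2 was at most 23.7% in LPS and at least 27.9% in LPS-MIC-1, without overlap. How the counting divided reads between these similar transcripts was not tested. The α and β subunits, Atp5a1 and Atp5b, fell by 0.26 and 0.35 (adjusted p = 0.000181 and 7.33e-05).

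The 13 members without a call in that comparison included several complex IV isoforms. Cox6a2, the most abundant member in muscle, was 3205.9, 3412.3 and 3266.6 FPKM in LPS and 3613.8, 3400.7 and 3021.7 in LPS-MIC-1. The groups overlapped fully and the log2 fold change was 0.02 (SE 0.0623, adjusted p = 0.821), or 0.15 (adjusted p = 0.0159) with equal library sums. Its partner Cox6a1, the form found in most tissues, was 67.4, 72.2 and 75.2 against 60.5, 67.6 and 76.4 FPKM (-0.08, adjusted p = 0.452). Cox8a (-0.13, adjusted p = 0.157), Cox8b (-0.15, adjusted p = 0.0517) and the low-level Cox4i2 (-0.35, SE 0.297, adjusted p = 0.352) did not pass either. The call of Cox8b turned on the fit: without control replicate 1 its adjusted p was 0.0136, and without LPS replicate 1 it was 0.0344; Cox4i2 passed without LPS-MIC-1 replicate 2 (adjusted p = 0.011). Members without a call outside complex IV included Ndufa2, Ndufb11, Atp5j, Cox7a2l, Cox4nb, Atp5s and Atp5sl. Among them Ndufb11, an accessory subunit of complex I, was 206, 189 and 186 FPKM in LPS and 203, 200 and 196 in LPS-MIC-1, with overlap.

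The muscle forms of complex IV subunits made up most of each pair in all 3 groups of muscle. Cox6a2 made up 98.1% ± 0.0479, 97.9% ± 0.106 and 98% ± 0.415 (mean ± SD, n = 3) of Cox6a1 and Cox6a2 together in control, LPS and LPS-MIC-1. Cox7a1, the muscle form, made up 83.9% ± 0.943, 84.5% ± 1.03 and 82.9% ± 1.19 of Cox7a1 and Cox7a2. Both fell in LPS-MIC-1 against LPS, Cox7a1 from 1277.3, 1306.7 and 1279.1 to 970, 868 and 907 FPKM (-0.49, SE 0.0597, adjusted p = 0.000162) and Cox7a2 by 0.33 (adjusted p = 0.00449). Cox8b made up 95.4% ± 0.454, 94.4% ± 0.312 and 94.3% ± 0.459 of Cox8a and Cox8b, and Cox4i2 under 1% of Cox4i1 and Cox4i2 in every library. The widely expressed Cox4i1, Cox6b1 and Cox7b and the complex IV member Ndufa4 fell by 0.28, 0.45, 0.31 and 0.25, all with adjusted p under 0.05.

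**Figure D3:**
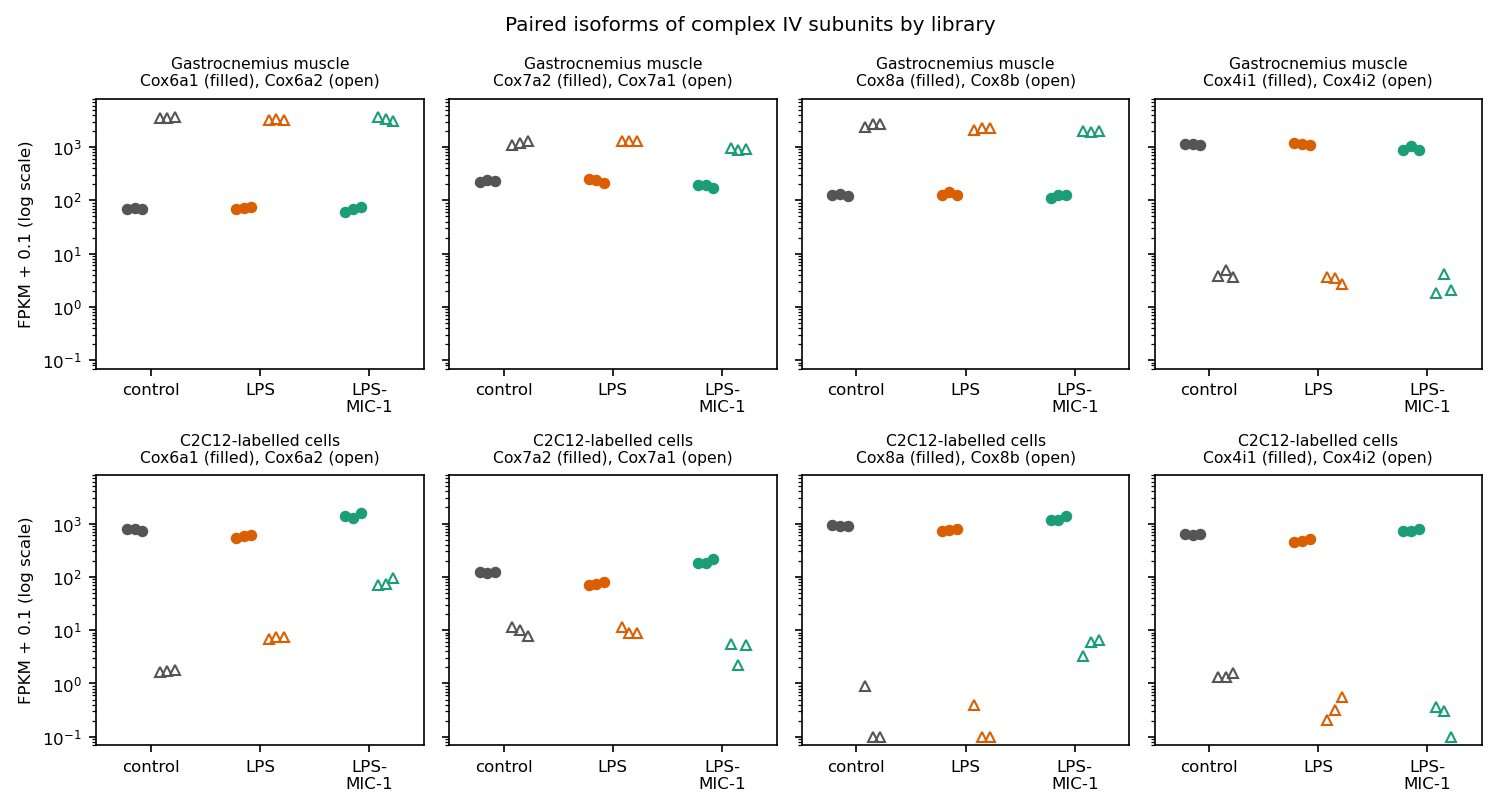
FPKM + 0.1 (vertical axes, log scale) of 4 pairs of complex IV isoforms in each library, by group (horizontal axes), in gastrocnemius (top) and the libraries labelled C2C12 (bottom). Filled circles are the first and open triangles the second gene of each pair, and each mark is 1 library; in muscle Cox6a2, Cox7a1 and Cox8b lie above their partners in every library, and in the cells below.

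Ndufa4l2, a relative of Ndufa4 known for its induction in low oxygen, had the largest difference of all members in muscle. It was 12.1, 12.6 and 12.8 FPKM in control, 12.3, 12.1 and 10.4 in LPS, and 4.19, 6.03 and 4.81 in LPS-MIC-1. All LPS-MIC-1 values were under every other value, and it fell by 1.21 against LPS (SE 0.126, adjusted p = 6.91e-05) and by 1.32 against control. Cox7a2l, linked to supercomplexes of complexes III and IV, was 94, 98.6 and 96.9 FPKM in LPS and 91.7, 94.4 and 96.3 in LPS-MIC-1. It did not pass (-0.04, adjusted p = 0.406). Cox4nb and Atp5s, at 1.9 to 9.56 FPKM, had log2 fold changes of 0.27 and -0.12 without a call.

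Against control, the muscle libraries labelled LPS-MIC-1 had 67 members lower and 1 higher of 83 (28.5% and 30.0% of all genes). The median was -0.36 in the members, or -0.21 with equal library sums, against 0.01 over all genes. Without overlap, 65 were lower and 2 higher (31.1% and 33.4% of all genes), and past the study's thresholds 1 was lower and 0 higher (6.12% and 9.33%). Both comparisons of the LPS-MIC-1 group rest on the same 3 libraries. The member that rose was Sdha, from 152, 159 and 164 to 172, 174 and 167 FPKM (0.11, SE 0.0343, adjusted p = 0.0259). That call was lost without control replicate 1 or 2 and without LPS-MIC-1 replicate 1 or 2 (adjusted p = 0.0576 to 0.0825). The other members called higher in the LPS libraries than in control stood near or below control here. Ndufs1 had a log2 fold change of -0.06 (adjusted p = 0.285, and 0.10 when each library was scaled to the same sum), Atp5a1 0.01 (adjusted p = 0.818), and Cyc1 fell by 0.42. Relative to the control mean, the median member stood at 99.4 to 103% in the LPS libraries and at 79.7, 81.1 and 75.3% in the LPS-MIC-1 libraries, where 74, 75 and 79 of 83 members were below 100%. The lowest value of any member there was 33.6%.

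**Figure D4:**
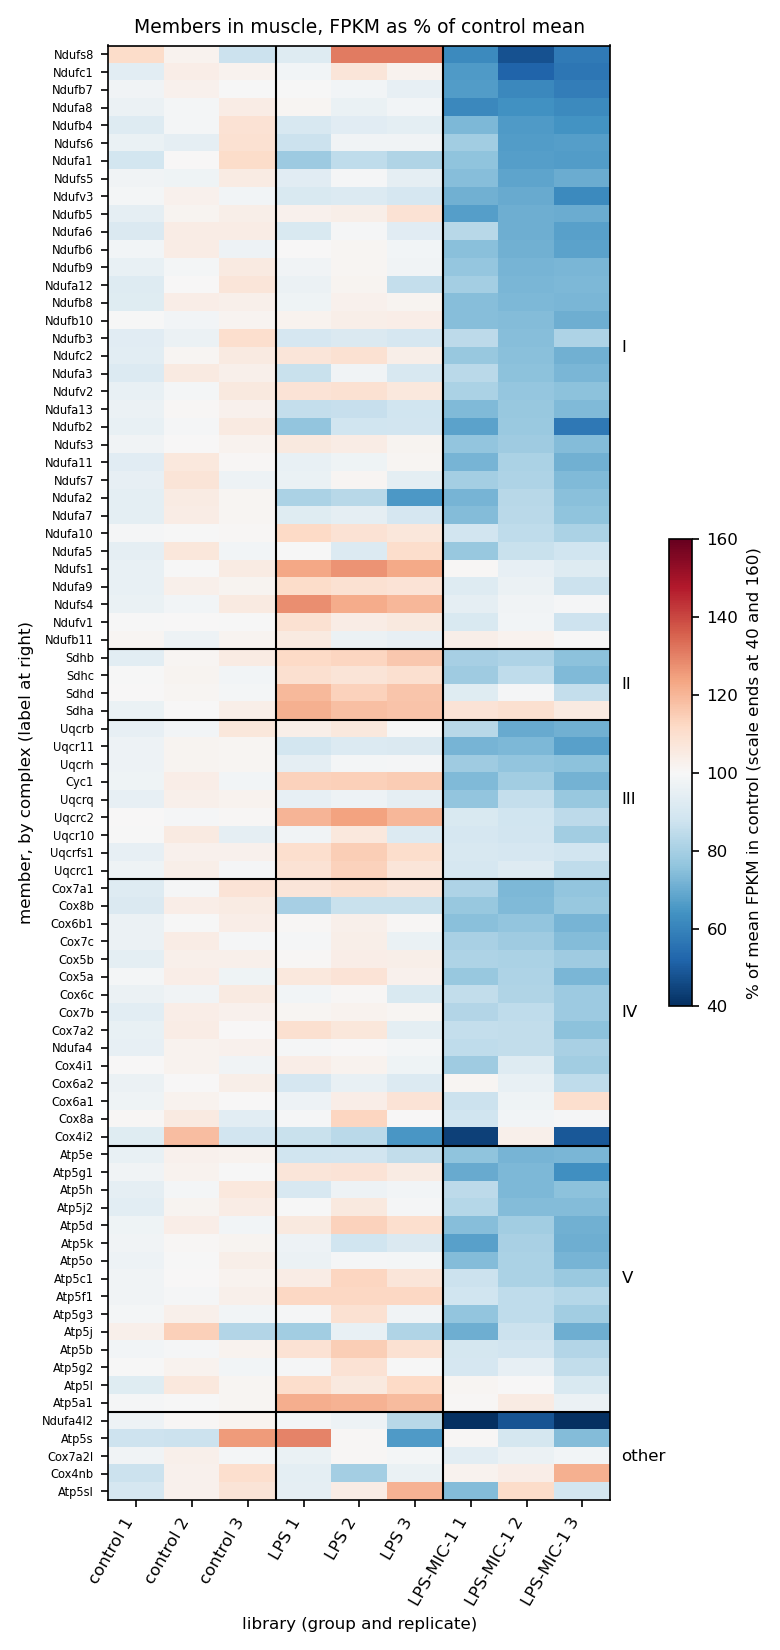
FPKM of tested members in gastrocnemius (82 of 83; vertical axis, grouped by complex and ordered within it by LPS-MIC-1 replicate 2) as a percent of each member's mean in control, in each of 9 libraries (horizontal axis). Colour runs from 40% (blue) to 160% (red) of the control mean; the 3 LPS-MIC-1 columns are mostly blue, with medians over all 83 of 75.3 to 81.1%, and Sdha is among the few that are not.

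Neighbouring mitochondrial genes were examined as lists chosen with earlier results of these data known. In muscle LPS-MIC-1 against LPS, where 28.2% of all genes were lower and 28.3% higher, 13 of 25 assembly factors fell and 0 rose (median -0.35), 10 of 14 citric acid cycle enzymes fell and 1 rose (-0.29), and 9 of 11 tested genes for cytochrome c and coenzyme Q fell and 0 rose (-0.34). Of 75 mitochondrial ribosomal proteins, 51 fell and 2 rose (median -0.30). Of 80 cytosolic ribosomal proteins, 5 fell and 22 rose (median 0.07). The 22 that rose were near the share of all genes, and the 5 that fell were under it. The gene of each list with the largest absolute change was Atpaf1, an ATP synthase assembly factor (-0.99), Idh3b, of isocitrate dehydrogenase (-0.51), Pdss2, of coenzyme Q synthesis (-0.67), Mrpl41 (2.14, against its list) and Rpl3 (1.94). Rpl3, a ribosomal protein with a muscle-specific paralog, rose from 18.4, 17.7 and 18.2 to 56.4, 67.4 and 88.9 FPKM. In LPS against control, where 8.25% of all genes were higher and 7.48% lower, 7 citric acid cycle enzymes and 3 genes for cytochrome c and coenzyme Q rose and 0 fell (medians 0.19 and 0.22), and 16 of 80 cytosolic ribosomal proteins fell and 0 rose (-0.13). The counts that rose among assembly factors (2 of 25, with 1 lower, median 0.08) and mitochondrial ribosomal proteins (7 of 75, with 1 lower, median 0.03) were near the share of all genes.

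Genes of fibre types also differed between the muscle groups. Of 10 genes of slow or oxidative fibres, 9 rose and 1 fell in LPS-MIC-1 against LPS (median 3.63). Over all genes, 28.3% were higher and 28.2% lower in that comparison. The summed FPKM of the 10 genes did not rise: its LPS-MIC-1 range of 1332.4 to 1474.1 overlapped the 1432.2 to 1503.7 of the LPS libraries. Myh7, the slow myosin heavy chain, was 0.0378, 0.0505 and 0.2 FPKM in LPS and 10.3, 10.5 and 10.2 in LPS-MIC-1. Myoglobin (Mb), the oxygen store of oxidative fibres and the most abundant of the list, was 734, 779 and 802 FPKM in control, 1380.1, 1451.9 and 1407.6 in LPS, and 1244.7, 1167.1 and 1113.4 in LPS-MIC-1. Of the 15 muscle-fibre genes, a list not limited to fast fibres that includes Acta1, Ckm, Ttn and Neb, 11 fell and 2 rose (median -0.24). Their part in the values of the respiratory chain was not tested.

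In the libraries labelled C2C12, respiratory chain transcripts were lower in LPS than in control. Of 81 members tested, 58 fell and 3 rose (limma, Benjamini-Hochberg), against 32.1% and 31.1% of all 10877 genes, with a median of -0.52 in the members and 0.00 over all genes. Past the study's thresholds (absolute log2 fold change over 1, adjusted p under 0.001) were 7 lower and 1 higher, against 10.0% and 10.9% of all genes. Without overlap, 67 were lower and 4 higher (40.1% and 39.4% of all genes). Summed FPKM was 16612, 16489 and 16671 in control and 11522, 11889 and 12372 in LPS, a difference of -28.1% (exact permutation p = 0.1), and the 5 complexes differed by similar amounts, from -26.8% in complex I to -32.1% in complex II. With equal library sums they differed by -42.1% to -46.3%, and the median was -0.86. Members fell in each complex: 26 of 35 in I, 4 of 4 in II, 6 of 9 in III, 11 of 14 in IV and 10 of 15 in V.

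Catalytic and core subunits were among the members that fell. Sdha was 114, 113 and 111 FPKM in control and 53.8, 53.9 and 54 in LPS, without overlap, and fell by 1.06 (SE 0.0508, adjusted p = 9.08e-07). Uqcr11, a small complex III subunit, was 316, 305 and 314 against 108, 102 and 125 FPKM and fell by 1.49 (SE 0.125, adjusted p = 1.86e-05), the largest fall among the members tested. Cox4i2, too low to be tested, was 1.22, 1.2 and 1.46 FPKM in control and 0.11, 0.224 and 0.446 in LPS, without overlap. Atp5g1 fell by 1.31, from 348, 337 and 350 to 141, 138 and 139 FPKM (SE 0.102, adjusted p = 1.19e-05), and Ndufs8 by 1.02. The share of Atp5g1 among the subunit c genes was 26.4 to 27.1% in control and 18.3 to 19.1% in LPS. The α and β subunits of complex V, Atp5a1 and Atp5b, fell by 0.85 and 0.55, and Cyc1, Uqcrfs1, Ndufs1 and Ndufv1 by 0.71, 0.34, 0.83 and 0.66. Ndufa2, at -0.10, was among the 20 not called. Uqcrc2 fell by 0.25, near the threshold (adjusted p = 0.045), and lost its call without any 1 of the 6 libraries compared (adjusted p = 0.0767 to 0.116).

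The 3 members called higher in LPS than in control in the cells were Cox6a2, Ndufs4 and Cox7a2l. Cox6a2 was 1.55, 1.63 and 1.71 FPKM in control and 6.65, 7.27 and 7.39 in LPS, a log2 fold change of 2.06 (SE 0.115, adjusted p = 2.02e-06). It still made up only 1.21% ± 0.0241 (SD, n = 3) of Cox6a1 and Cox6a2 there. Cox7a2l was 263, 264 and 268 against 389, 389 and 410 FPKM and rose by 0.58 (SE 0.1, adjusted p = 0.00117). Ndufs4, the complex I subunit that also rose in muscle, was 20.1, 19.2 and 22.1 against 23.5, 26.7 and 28.1 FPKM, a rise of 0.35 (adjusted p = 0.015). Cox4nb fell by 1.29.

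In LPS-MIC-1 against LPS in the cells, the comparison that cannot be told apart from cell identity, 70 members rose and 7 fell of 81, against 41.4% and 43.2% of all genes, with a median of 1.32 against -0.05. Past the study's thresholds were 42 higher and 2 lower (24.3% and 25.6% of all genes), and without overlap 70 higher and 7 lower (41.8% and 43.7%). The count of fallen members was 4 without LPS replicate 2 or 3 or LPS-MIC-1 replicate 1, and 10 without LPS-MIC-1 replicate 3, while 70 rose in each of these fits. Summed FPKM in LPS-MIC-1 was 24696, 24728 and 30960, with replicate 3 highest, and the median without it was 1.18. Complexes I, III, IV and V differed in sum from LPS by 173%, 121%, 137% and 112%, without overlap in any.

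Complex II stood lowest among the 5 in that comparison, at a difference of 19.7% in sum and a median log2 fold change of 0.12. Sdhb was 112, 113 and 114 FPKM in LPS and 156, 150 and 169 in LPS-MIC-1 and rose by 0.49 (SE 0.0471, adjusted p = 1.86e-05), and Sdhc rose by 0.39, although its value was -0.00 after quantile normalization. Sdha fell by 0.15 (adjusted p = 0.0251), a call lost without any 1 of the LPS libraries or without LPS-MIC-1 replicate 1 or 2 (adjusted p = 0.0574 to 0.0633), and Sdhd had -0.17 (adjusted p = 0.0634). The other members that fell were Ndufs8, Ndufv3, Uqcrc2, Cox7a1, Cox7a2l and Atp5sl.

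The largest rises in complexes I, III and V were those of Ndufb7, Uqcr11 and Atp5g1. Ndufb7 rose from 111, 127 and 120 to 768, 759 and 929 FPKM (2.77, SE 0.086, adjusted p = 2.37e-08), Uqcr11 from 108, 102 and 125 to 673, 684 and 917 (2.75), and Atp5g1 by 2.20. In complex IV, Cox6a2 was 6.65, 7.27 and 7.39 against 70.3, 73.1 and 93.9 FPKM (3.45, SE 0.115, adjusted p = 3.44e-08), and Cox8b 0.302, 0 and 0 against 3.17, 5.85 and 6.5 (4.99, SE 0.926, adjusted p = 0.00106). The Cox8b value depends on the pseudocount, since 2 of 3 LPS libraries list it at 0. Cox7a1 went the other way, from 11.2, 8.73 and 8.79 to 5.37, 2.13 and 5.16 FPKM (-1.26, SE 0.339, adjusted p = 0.00794). Even so, the widely expressed forms made up most of each pair: Cox6a2 reached 5.36% ± 0.412 and Cox8b 0.412% ± 0.126 of their pairs in LPS-MIC-1. Among catalytic or core subunits Cyc1 and Ndufv1 rose by 1.47 and 1.69, Atp5b by 0.59, and Atp5a1, at 0.00 (adjusted p = 0.966), did not pass. The value of Atp5a1 was -0.36 after quantile normalization and -0.08 without LPS-MIC-1 replicate 3, both past the test.

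**Figure D5:**
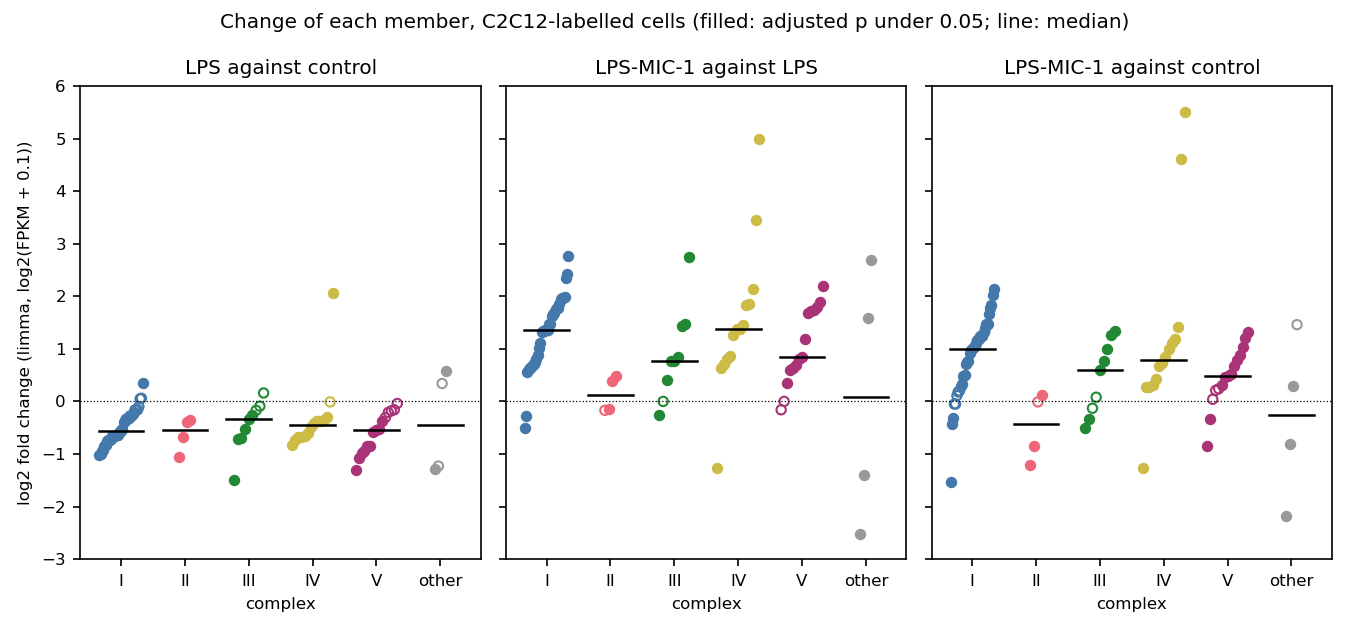
Log2 fold change of each member in the libraries labelled C2C12 (vertical axis, limma on log2(FPKM + 0.1)), by complex (horizontal axis), for 3 comparisons. Filled points passed an adjusted p under 0.05, open points did not, and lines are medians per complex; most members lie below 0 for LPS against control (median -0.52) and above 0 for LPS-MIC-1 against LPS (median 1.32), with complex II near 0 in the latter.

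Against control, the cell LPS-MIC-1 libraries had 57 members higher and 12 lower (39.5% and 41.8% of all genes), with a median of 0.72 against -0.06. Without overlap, 59 were higher and 10 lower (40.3% and 42.7%), and past the study's thresholds 27 and 3 (21.1% and 22.1%). The split of calls depended on scaling: it was 44 and 28 after quantile normalization, and 42 and 23 with each library scaled to the same sum. Complex II again differed from the others, with summed FPKM of 592, 588 and 609 in control and 469, 442 and 541 in LPS-MIC-1, a difference of -18.8%, while complexes I, III, IV and V differed by 99.9%, 56.4%, 70% and 44.5%. With equal library sums the difference was -37.6% in complex II and 53.4%, 19.7%, 30.4% and 10.7% in the others, and the median was 0.34. Sdha was 114, 113 and 111 FPKM against 48.1, 45.8 and 52.4 and fell by 1.21 (SE 0.0508, adjusted p = 1.24e-07).

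Among the neighbouring lists in the cells, LPS against control (32.1% of all genes lower, 31.1% higher) had 11 of 14 citric acid cycle enzymes lower and 1 higher (median -0.52), 7 of 11 genes for cytochrome c and coenzyme Q lower and 0 higher (-0.36), and 45 of 74 mitochondrial ribosomal proteins lower and 11 higher (-0.39). Assembly factors were split, with 6 of 23 lower and 5 higher (0.03), as were cytosolic ribosomal proteins, with 10 of 78 lower and 13 higher (0.04). In LPS-MIC-1 against LPS, where 41.4% of all genes were higher and 43.2% lower, the counts higher and lower were 57 and 9 of 74 for mitochondrial ribosomal proteins and 62 and 2 of 78 for cytosolic ones. They were 9 and 7 of 23 for assembly factors, a share near or under that of all genes, 7 and 2 of 14 for the citric acid cycle, and 7 and 4 of 11 for cytochrome c and coenzyme Q.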

How the data were processed

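RNA was sequenced from 18 libraries, grouped by their labels. Reads had been pseudoaligned with kallisto and imported with tximport, and the authors deposited 1 table of FPKM per experiment, with a row per gene symbol; the submitters' processing notes name build mm9. Their 6 DESeq2 tables (fold changes and p-values), and 11 unnamed muscle columns (9 of them per-sample values), were not used. No read counts were used, so no counting interval can be given.

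Each experiment was fitted separately with limma 3.58.1 in R 4.3.3 on log2(FPKM + 0.1), with a mean per group, eBayes with a trend and all 9 libraries. The filter was a mean above 1 FPKM, which left 10877 genes with 81 members in cells (not Cox4i2, Cox6b2, Cox7b2 and Ndufa4l2) and 9475 genes with 83 members in muscle (not Cox6b2 and Cox7b2). The Benjamini-Hochberg adjustment covered every gene left. Summed FPKM was compared by two-sided exact permutation. The fit was tested on simulated data with 200 genes changed in LPS against control. It recovered 61.5% of them in cells and 64.0% in muscle, with 8 and 7 wrong calls. A member without a call may therefore still differ.

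Members and lists were chosen with earlier results of these data known. Genes named by rule are the most abundant and most changed member of each complex, isoform sets, catalytic or core subunits, members past the study's thresholds in muscle, and the most changed gene of each list; other members were named after their values were seen. Current names came from RefSeq for all 85 members (81 by symbol). No sequences are shown, and the values of 1 member are not reported here. Alternatives were a pseudocount of 1, no FPKM filter, median-ratio scaling, quantile normalization, only the libraries compared, a replicate block, leaving out each library and, chosen after seeing the data, scaling each library to a sum of 1000000. Python 3.11.15 and matplotlib 3.10.9 were used.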

Additional observations from a re-analysis of the deposited data

Results flagged for a closer look

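Summed FPKM of several complexes differed in opposite directions in the libraries labelled C2C12 and in muscle under the same comparison, with every library of one group beyond every library of the other in both. The difference between the experiments was not tested, and their tables were normalized separately. For LPS against control, complex II differed by -32.1% in cells and 13% in muscle, and complex V by -31.7% and 3.02%. The complex V groups in muscle nearly met, with sums of 13122, 13780 and 13747 in control and 13825, 14228 and 13824 in LPS. Both cell groups in that comparison carried macrophage markers, and their summed myogenic FPKM was at most 2.75. At the level of single genes, 21 of 81 members tested in both were lower in all LPS libraries of the cells and higher in all those of muscle, against 7.87% of 8422 genes; they include all 4 Sdh genes, Ndufs1, Ndufv1, Cyc1, Uqcrfs1, Uqcrc1, Uqcrc2, Atp5a1 and Atp5b.

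For LPS-MIC-1 against LPS, complexes I to V differed by 173%, 19.7%, 121%, 137% and 112% in cells and by -23.5%, -25.2%, -21.5%, -15.5% and -22.2% in muscle. Against control, complexes I, III, IV and V differed by 99.9%, 56.4%, 70% and 44.5% in cells and by -25.4%, -20.5%, -17.9% and -19.9% in muscle. In the cells these comparisons cannot be told apart from cell identity, given the macrophage sums of 7835.7 to 11096.0 FPKM in control and LPS and 81.4 to 293 in LPS-MIC-1. For LPS-MIC-1 against LPS, 60 of 81 members were higher in the cells and lower in muscle without overlap, against 16.6% of all genes.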

How the results depend on the processing

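In muscle, LPS-MIC-1 against LPS kept 59 to 70 members lower in every fit run, with a median of -0.21 to -0.37. Of the comparisons of named members with an alternative, 2995 kept direction and side of the threshold, 116 lost their call, 38 gained one and 19 reversed; the cause was not tested. Scaling each library to the same sum moved the median of all genes to 0.12 and 0.16 in the muscle LPS-MIC-1 comparisons (against LPS and control) and to -0.30 and -0.43 in cells (LPS or LPS-MIC-1, each against control); quantile normalization moved the muscle medians to -0.12 and -0.11. Relative to all genes, the muscle members stood at -0.33 against LPS, at -0.33 with equal sums and at -0.19 after quantile normalization. With equal sums, the members' medians were -0.86 (LPS against control) and 0.34 (LPS-MIC-1 against control) in cells and -0.21 in both muscle LPS-MIC-1 comparisons; after quantile normalization they were -0.67, 0.95 (LPS-MIC-1 against LPS) and 0.26 in cells. Member counts that moved were 28 (quantile) and 23 (equal sums) lower in cells for LPS-MIC-1 against control, and in muscle, with equal sums, 22 higher when LPS was set against control, 4 for LPS-MIC-1 against LPS and 5 for LPS-MIC-1 against control, the last being 2 after quantile normalization and 0 with 6 libraries. Calls among cytosolic ribosomal proteins for LPS against control were 53 (quantile), 44 (6 libraries) and 55 (equal sums) in cells and 10 (no filter) and 10 (equal sums) in muscle, and 56 for muscle LPS-MIC-1 against LPS with equal sums. With equal sums, complexes I to V differed by -42.1, -46.3, -43.9, -43.3 and -45.9% (LPS against control) and 53.4, -37.6, 19.7, 30.4 and 10.7% (LPS-MIC-1 against control) in cells, and in muscle by -16.3, -18.2, -14.2, -7.63 and -15% (LPS-MIC-1 against LPS) and -16.9, -5.77, -11.5, -8.49 and -10.7% (against control). Reversed after quantile normalization in cells were Sdhc -0.00 and Atp5a1 -0.36 (LPS-MIC-1 against LPS), and Ndufa3 -0.01, Sdhb -0.31, Cox8a -0.17, Atp5b -0.43, Cox4i1 -0.15 and Cox7b -0.10 (against control). Reversed with equal sums were, against control, Sdhb -0.24, Atp5b -0.34, Cox4nb -0.08, Cox4i1 -0.10, Cox7b -0.11 and Ndufs1 -0.18 in cells and Atp5g2 0.01, Ndufs1 0.10 and Ndufv1 0.04 in muscle. Leaving out 1 library in cells gave Atp5a1 -0.08 to 0.06 (against LPS) and Atp5b -0.07 to 0.10 (against control), both lowest without LPS-MIC-1 replicate 3. Leaving out 1 library gave, in cells, 4 to 10 members lower and medians of 1.18 to 1.37 for LPS-MIC-1 against LPS, and 15 to 43 cytosolic ribosomal calls when LPS was set against control. In muscle LPS against control it gave 7 to 15 members higher, 2 to 6 lower, and 1 to 4 assembly factor, 3 to 9 mitochondrial and 6 to 22 cytosolic ribosomal calls; for LPS-MIC-1 against control 0 to 1 were higher. Deviations of same-numbered libraries correlated at -0.0757 to 0.0573 in cells and -0.054 to 0.0823 in muscle. Those of differently numbered libraries correlated at -0.091 to 0.121 and -0.0745 to 0.0811. With 3 libraries per group these values cannot settle whether replicate numbers pair the samples. With a replicate block 68 muscle members were lower for LPS-MIC-1 against LPS and 11 higher for LPS against control. Depth is unknown, so members near 0 FPKM could not be judged.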
